A study of Mus musculus with 7 samples.

Results

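The 39 genes described here encode the transcription factor NRF2, its inhibitor KEAP1, and the glutathione, thioredoxin, peroxide-removing and NADPH-supplying enzymes that form the antioxidant defense of the cell. They were taken as a named list and looked up by symbol in a table of 24552 gene symbols, where all 39 had a row. The transcripts of EpCAM-positive cholangiocytes (bile duct epithelium), isolated fresh from mouse liver, were sequenced from their 3′ ends. All mice carried the Foxp3GFPDTR transgene, in which Foxp3-positive regulatory T cells make a green fluorescent protein and the diphtheria toxin receptor, and all were fed DDC, which damages bile ducts, for 10 days. The PBS group (4 libraries) received saline and the DT group (3 libraries) received diphtheria toxin at 1 µg/kg, each by intraperitoneal injection every 48 h once the diet had begun. The toxin therefore differs between the groups, while the diet and the transgene are shared. Reads of Y-linked genes also differed, being present in all DT libraries but in PBS 1 alone of the PBS libraries. The toxin and this difference cannot be fully told apart. No group on a normal diet and no group without the transgene was analysed here. The labels give neither the age nor the sex of the mice, nor whether a library stands for 1 animal, so p-values measure the spread between libraries, which may be partly technical.

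NRF2, the product of Nfe2l2, is bound by KEAP1 and sent for degradation in unstressed cells. Oxidants and electrophiles modify cysteines of KEAP1, NRF2 then accumulates, and with small MAF proteins it binds antioxidant response elements in DNA and raises transcription of genes for glutathione synthesis, thioredoxin recycling, detoxification and NADPH supply. Bile ducts are exposed to bile acids and, on DDC, to porphyrins that precipitate in bile, so this defense is of interest in cholestatic injury.

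The core letters of the antioxidant response element, TGACNNNGC, were searched on both strands in the RefSeq promoter windows of build GRCm38.p6, which run from 250 bases before to 50 bases after a start site. This build is not that of the counts. A window was found for 35 of the 39 genes (not for Gclc, Gsr, Gsta4 and Prdx6), and 11 of the 35 (31.4%) held the letters at 1 or more start sites, against 14.0% of all 27025 genes with a window. The 11 were Nfe2l2, Gclm, Txnrd1, Srxn1, Prdx1, Gsta3, Mgst1, Sod1, G6pdx, Pgd and Me1. The matches of Nfe2l2 and Pgd, which are also well read (defined below), are not shown. Any relation between a match and the difference between groups was not tested. Among well-read genes with a window and no match, Txn1 and Tkt had differences as large as that of Mgst1 (log2 fold changes 1.07, 0.82 and 0.81). A set of 6 matches of well-read genes is shown, chosen by their differences between groups. Prdx1, Txnrd1, Sod1 and Mgst1 had larger differences, and Gsta3 and Me1 had small ones. Each is printed 5′ to 3′ on the strand that carries the letters, which are in capitals.
Prdx1, chr4:116685456-116685484, minus strand: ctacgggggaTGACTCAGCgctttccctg
Txnrd1, chr10:82859104-82859132, minus strand: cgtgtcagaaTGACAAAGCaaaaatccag
Sod1, chr16:90220696-90220724, minus strand: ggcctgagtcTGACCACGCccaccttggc
Mgst1, chr6:138140461-138140489, minus strand: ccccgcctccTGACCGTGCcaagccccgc
Gsta3, chr1:21240454-21240482, plus strand: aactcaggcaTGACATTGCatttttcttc
Me1, chr9:86695902-86695930, minus strand: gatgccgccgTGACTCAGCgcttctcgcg
In Prdx1 and Me1 the match overlaps TGANTCA, the letters of the AP-1 site, which 8.97% of all genes with a window and 5 of the 35 members (14.3%) held. The match began 133 bases upstream of the start site in Prdx1, 92 in Txnrd1, 56 in Sod1, 56 in Mgst1, 121 in Gsta3 and 6 in Me1. A match of letters is a description of sequence, and binding was not measured.

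Total counts ran from 4805018 to 6285624 per library, and 5419 to 8361 genes had a count. Levels are given as counts per 1000000 reads (CPM) on TMM-scaled library sizes; since 1 tag is read per transcript end, CPM was not divided by length and no level is ranked between genes. Counts of 0 were common. A library was at 0 in 25.6% of cases in which the rest of its group had a mean of 200 to 500 counts, and in 1.17% of cases at 1000 to 2000. Of 10 listed cholangiocyte markers (Epcam, Krt7, Krt19, Sox9 and others) none was at 0 throughout, and their summed level was 18227 to 23257 CPM with PBS and 20343 to 25848 CPM with DT. The 20 hepatocyte markers summed to 2336 to 3864 CPM with PBS and 3750.4 to 5613 CPM with DT, with Cyp3a11, Cps1, Ass1, Tat and Pck1 at 0 in every library. The 12 macrophage and monocyte markers summed to 56.4 to 122 CPM in PBS 1 to 3, 1138 CPM in PBS 4 and 214 to 379 CPM with DT, with Adgre1 and Ccr2 at 0. The 6 neutrophil markers summed to 386 CPM in PBS 4, 0 in PBS 1 to 3 and 36.7 to 167 CPM with DT, with Ly6g, Elane and Mpo at 0. All 10 erythroid markers were at 0, as were 9 of 10 T and B cell markers, Foxp3 among them. Endothelial markers summed to at most 57.8 CPM (Lyve1, Clec4g and Vwf at 0) and stellate and fibroblast markers to at most 136 CPM (Lrat, Des and Pdgfrb at 0). Y-linked reads were present in PBS 1 and all DT libraries and at 0 counts in PBS 2 to 4. The gene Xist was read most where Y-linked reads were absent: 12089 times in PBS 2, 17627 in PBS 3 and 10420 in PBS 4. It was read 630 times in PBS 1, 453 in DT 1 and 0 in both DT 2 and DT 3. By these reads PBS 2 to 4 were of female pattern (Xist without Y-linked reads), and DT 2 and DT 3 were of male pattern (the reverse). PBS 1 and DT 1 held both kinds of reads, and the labels give no sex, so their make-up was not settled. In bulk samples, fewer cells of a type and less RNA per cell cannot be told apart.

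Taken as a sum, the 39 genes were at 4830.1, 4673, 5318 and 9252 CPM across PBS 1 to 4 and at 9250.2, 9218 and 8705 CPM with DT 1 to 3. The PBS libraries thus split into 3 low ones and PBS 4, which lay at the level of the DT libraries, so the groups overlapped. The mean was 6018 ± 2173 CPM in PBS (SD, n = 4) and 9058 ± 306 CPM with DT (SD, n = 3), and means below are given in the same way. PBS 4 was also the library with the highest macrophage and neutrophil sums and the most genes with a count, and the hepatocyte sums of PBS 4 and the 3 DT libraries all lay above those of PBS 1 to 3. The part of these differences in the sum was not tested.

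**Figure D1:**
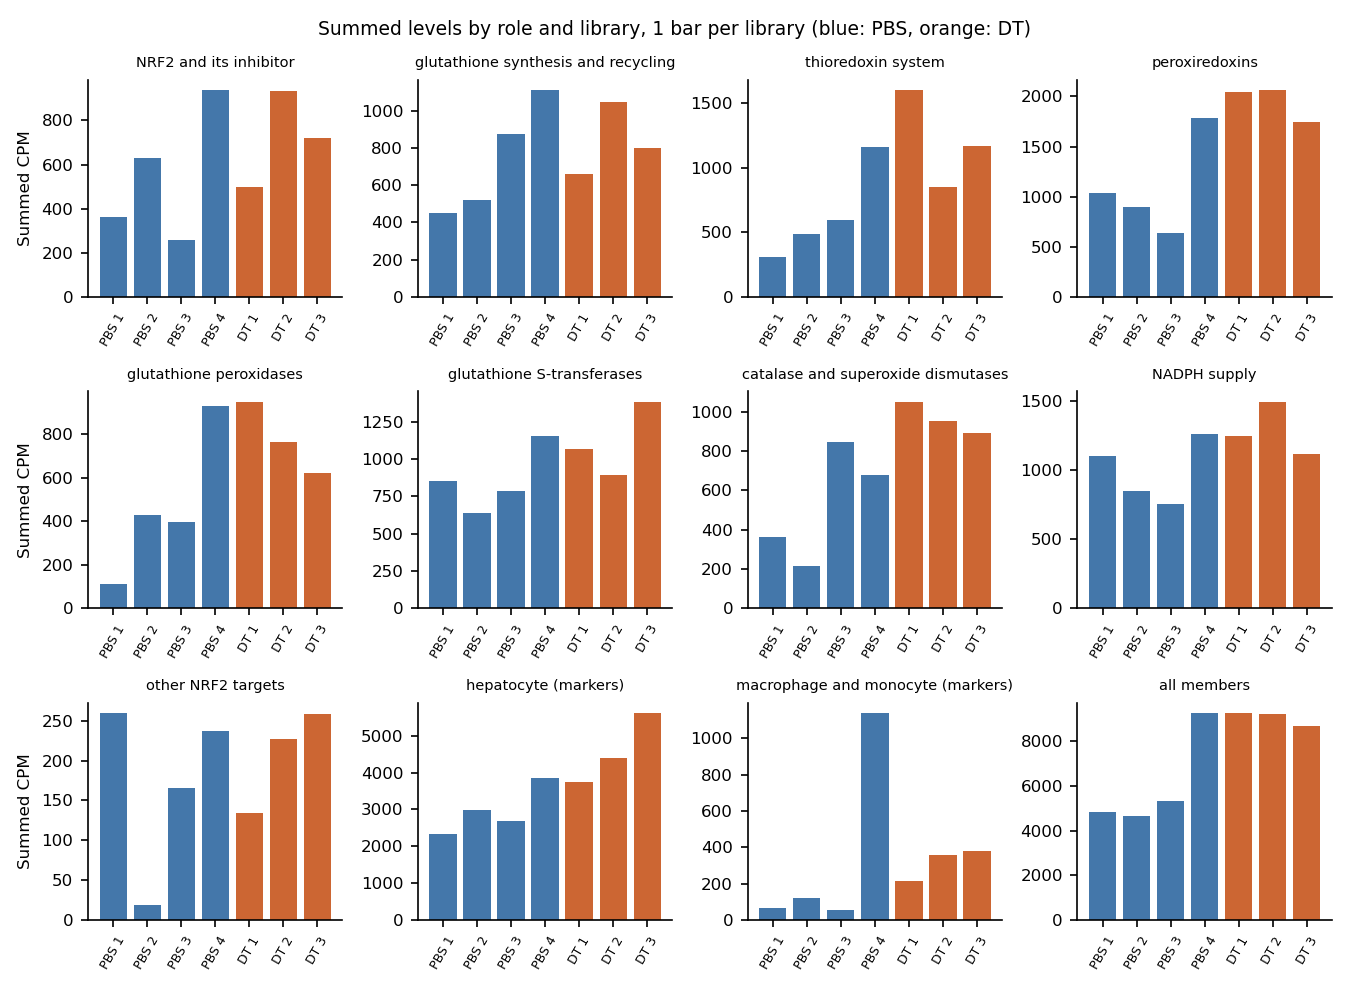
Bars show the summed level (CPM, linear axes from 0) of each role's genes, of hepatocyte and macrophage markers and of all 39 members, with 1 bar per library, PBS in blue and DT in orange. In the sum of all members PBS 4 (9252 CPM) stands beside the DT libraries (8705 to 9250.2 CPM), and it holds the highest macrophage sum (1138 CPM).

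No member passed the edgeR quasi-likelihood test with Benjamini-Hochberg adjustment over all 7688 tested genes, of which 0% were called higher and 0.039% lower in DT. Of the 39, 35 passed the filter on low counts; Nqo1, Gsta1 and Gsta2 were at 0 in every library, and Gpx3 had reads in PBS 4 and DT 2 only. Fold changes were positive for 28 of the 35 and negative for 7, with a median log2 fold change of 0.66, against 49.3% positive and a median of -0.02 among all genes tested. Among the 17 members whose average log2 CPM reached 7, here called well read, 15 were positive with a median of 0.61, against 50.9% positive and a median of 0.01 among 1655 genes at that level. At an unadjusted p below 0.05 there were 3 higher members (Prdx1, Txn1 and Sod1) and 0 lower, against 1.39% of tested genes on the higher and 2.11% on the lower side. All 3 are among the 17 well-read members, and of the 1655 genes at that level 69 were higher and 57 lower at this p. DESeq2 called 0 members (0.416% of genes higher, 1.18% lower) and limma-voom 0 (0.078% each way). Without PBS 4 the counts were 30 of 35 positive with a median of 0.94, and without DT 2 they were 23 of 35 with a median of 0.56 (0.04 and -0.15 for all genes tested). With a hepatocyte marker score as a covariate they were 21 of 35 with a median of 0.39, where the median of all genes was -0.31.

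**Figure D2:**
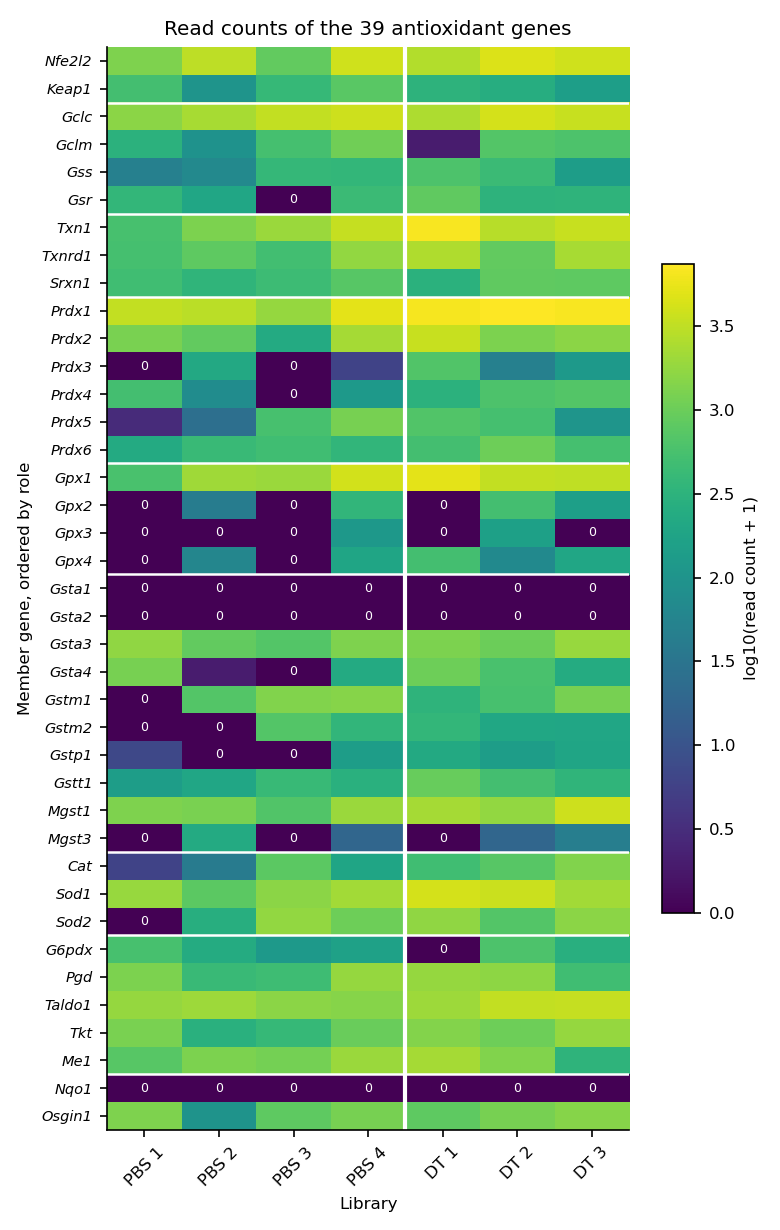
The heat map gives log10(read count + 1) for the 39 members (rows, ordered by role, with lines between roles) in the 7 libraries (columns), and a printed 0 marks a count of 0. Nqo1, Gsta1 and Gsta2 are at 0 throughout, 13 members are at 0 in some libraries, and 23 have reads in all 7.

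NRF2 and its inhibitor did not pass the test. Nfe2l2 was at 259.5, 609, 179 and 784 CPM across PBS 1 to 4 and at 444, 885 and 694 CPM with DT 1 to 3, and the groups overlapped, with PBS 1 and PBS 3 lowest. Its mean was 458 ± 287 CPM with PBS and 674 ± 221 CPM with DT (log2 fold change 0.56 with SE 0.42 and an edgeR adjusted p of 1.00). Its value was 0.35 without PBS 1, 0.28 without PBS 3, 0.31 without DT 2 and 0.94 without PBS 4. Keap1 had 523, 100, 394 and 772 counts across PBS 1 to 4 against 321, 258 and 149 across DT 1 to 3, again with overlap.

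Glutathione is made by glutamate-cysteine ligase, whose catalytic and modifier subunits are encoded by Gclc and Gclm, and by glutathione synthetase (Gss), and its oxidized form is reduced by glutathione reductase (Gsr). Gclc, the rate-limiting step, was at 310.2, 450.3, 687 and 739 CPM with PBS and 419, 774 and 611 CPM with DT. Its libraries were interleaved (546 ± 201 against 602 ± 178 CPM, log2 fold change 0.14 with SE 0.36 and an edgeR adjusted p of 1.00), and the sign turned without PBS 1 (-0.07) or without DT 2 (-0.09). Gclm had 304, 92, 538 and 1077 counts with PBS and 1, 688 and 608 in DT. DT 1, with 1 count, stood far below the other DT libraries for this gene. Gss had 47 to 377 counts with PBS and 141 to 619 in DT, and Gsr 0 to 432 and 316 to 838.

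The thioredoxin system had positive fold changes for its 3 members. Txn1, thioredoxin itself, the small protein that reduces disulfides in other proteins, was at 107, 255, 397 and 676 CPM with PBS and 1124, 530.2 and 612 CPM with DT. DT 1 was highest, and PBS 4 lay above DT 2 and DT 3. The means were 359 ± 243 and 755 ± 322 CPM (log2 fold change 1.07 with SE 0.46, unadjusted p = 0.0306 and an edgeR adjusted p of 1.00), with 0.65 without DT 1 and 1.57 without PBS 4. Txnrd1, the selenoprotein reductase that recharges cytosolic thioredoxin with NADPH, was at 105, 163, 102 and 341 CPM with PBS and 425, 163 and 407 CPM with DT. DT 2 lay at the level of PBS 2 for this gene, and PBS 4 lay between DT 2 and DT 3 (log2 fold change 0.90 with SE 0.55 and an edgeR adjusted p of 1.00; 1.42 without PBS 4). Srxn1, sulfiredoxin, which repairs over-oxidized peroxiredoxins, had 341 to 730 counts with PBS and 295, 841 and 823 in DT, with DT 1 below every PBS library.

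Peroxiredoxins remove hydrogen peroxide through a reactive cysteine, and most are recharged by thioredoxin. Prdx1, a cytosolic form, was at 647, 577, 377 and 1011 CPM with PBS and 1106, 1399 and 1216 CPM with DT. Every DT library lay above every PBS library, with PBS 4 nearest to DT. The means were 653 ± 265 and 1240.3 ± 148 CPM (log2 fold change 0.93, SE 0.31, unadjusted p = 0.00432), and the difference did not pass edgeR, DESeq2 or limma-voom (adjusted p = 1.00, 0.0836 and 0.118). Leaving out 1 library gave it fold changes from 0.72 (PBS 3 removed) to 1.21 (PBS 4 removed), on the log2 scale, and it was 0.55 with the hepatocyte score as a covariate. Prdx1 was the one well-read member of 17 without overlap (DT above), where 5.5% of the 1655 genes at that level were above and 3.87% below, so the share of members is near the background. Without PBS 4, 6 well-read members lay wholly higher in DT (Txn1, Prdx1, Prdx2, Gpx1, Mgst1 and Sod1) and 0 lower, where 9.85% and 6.47% of genes did; leaving out any other library gave 1 or 2.

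Prdx2, a further cytosolic form that is abundant in red cells, was at 240.1, 171, 48.2 and 447 CPM with PBS and 581, 241 and 275 CPM with DT, with DT 2 level with PBS 1 and PBS 4 above DT 2 and DT 3 (log2 fold change 0.69 with SE 0.55 and an edgeR adjusted p of 1.00). Its value was 0.17 without DT 1, 0.35 without PBS 3 and 1.25 without PBS 4. The erythroid markers were at 0 in all libraries, but shared transcript ends were not counted for them. The part of red cells in the Prdx2 reads was not tested. Prdx3, the mitochondrial form, had 0, 220, 0 and 5 counts with PBS and 663, 47 and 125 in DT. Prdx4, the form of the endoplasmic reticulum, had 0 to 518 counts with PBS and 307 to 675 in DT, and Prdx5, a form of mitochondria and peroxisomes, had 2 to 1177 and 102 to 654. Prdx6, the form with 1 reactive cysteine, had 232 to 488 counts with PBS and 520 to 1045 in DT. For Prdx6 the CPM of DT 1 and DT 3 (86.4 and 95.6) lay below that of PBS 3 (100.5), so these groups overlapped on the scaled level.

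Glutathione peroxidases use glutathione to reduce peroxides. Gpx1, the cytosolic selenoprotein, was at 111, 409.7, 398 and 802 CPM with PBS and 864, 622 and 559.8 CPM with DT. PBS 1 was far below the rest and PBS 4 lay within the DT range (430.2 ± 284 against 682 ± 160.4 CPM, log2 fold change 0.66 with SE 0.44 and an edgeR adjusted p of 1.00). Its value was 0.34 without PBS 1, 0.44 without DT 1 and 1.15 without PBS 4. Gpx4, which reduces lipid peroxides in membranes and restrains ferroptosis, had 0, 58, 0 and 188 counts with PBS and 512, 69 and 196 in DT. Of the 50-base windows in the last 300 bases of its longest coding transcript in GENCODE M21, 98.4% also occur in a transcript of the pseudogene Gpx4-ps2, so its counts are uncertain. Gpx2, the epithelial and gut form, had 0, 41, 0 and 348 counts with PBS and 0, 519 and 151 in DT, and Gpx3, the secreted plasma form, 115 in PBS 4 and 157 in DT 2.

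Glutathione S-transferases couple glutathione to electrophiles. Gsta3, an alpha-class enzyme, was at 324, 171, 139 and 266 CPM with PBS and 213, 187 and 335 CPM with DT, and the groups were interleaved. Its log2 fold change was 0.12 with SE 0.55 and an edgeR adjusted p of 1.00, and it turned to -0.18 without DT 3 and -0.06 without PBS 3. Mgst1, a membrane-bound form abundant in liver, was at 262, 247, 136 and 389 CPM with PBS and 372, 327 and 659 CPM with DT. DT 3 stood highest, and PBS 4 lay above DT 1 and DT 2 (258 ± 103 against 453 ± 179.9 CPM, log2 fold change 0.81 with SE 0.46 and an edgeR adjusted p of 1.00). Without DT 3 its value was 0.43, and with the hepatocyte score it was 0.24.

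Gstm1, a mu-class enzyme, had 0, 679, 1371 and 1483 counts with PBS and 334, 563 and 1201 in DT (log2 fold change -0.51 with SE 1.56 and an edgeR adjusted p of 1.00). PBS 1 at 0 gave it the wide error, and the sign turned with the replicate block (1.17), with limma-voom (1.28) and with a covariate for Y-linked reads. Gstt1, of the theta class, had 141 to 410 counts with PBS and 336 to 937 in DT. Gsta4, which acts on lipid aldehydes such as 4-hydroxynonenal, had 1213, 1, 0 and 233 counts with PBS and 1048, 583 and 240 in DT. Gstm2, also of the mu class, had 0, 0, 688 and 349 counts with PBS and 369, 205 and 195 in DT, and Mgst3, a membrane-bound form, had 0 to 231 and 0 to 44.

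Gstp1, the pi-class enzyme, had 6, 0, 0 and 141 counts with PBS and 227, 142 and 185 in DT. All of its 50-base end windows (100%) also occur in Gstp2 or the pseudogene Gstp-ps, so these counts are uncertain. The 0 counts of Gsta1 and Gsta2 have the same limit, since 82.1% and 40.6% of their end windows occur in each other or in other genes. For Nqo1, the quinone reductase often read as the measure of NRF2 activity, 0% of end windows were shared, and it had 0 counts in all 7 libraries. By counting error alone that allows up to 3 counts per library, but the true limit is higher given how often well-detected genes were at 0 in single libraries. Of the 24552 gene symbols, 11487 had a count. The annotation used for counting is not named, so whether reads of Nqo1 could be counted cannot be told. Osgin1, a growth inhibitor induced by oxidative stress, did have reads: 1336, 96, 804 and 1202 counts with PBS and 804, 1208 and 1463 in DT (log2 fold change 0.28 with SE 0.70 and an edgeR adjusted p of 1.00). PBS 2 was the low library, and without it the value was -0.10.

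Superoxide dismutases turn superoxide into hydrogen peroxide, and catalase breaks that down in peroxisomes. Sod1, the cytosolic copper and zinc enzyme, was at 362, 153, 319.9 and 434 CPM with PBS and 688, 685 and 381 CPM with DT. DT 1 and DT 2 lay above all PBS libraries and DT 3 below PBS 4 (317 ± 119 against 584 ± 176 CPM, log2 fold change 0.88 with SE 0.41, unadjusted p = 0.0354 and an edgeR adjusted p of 1.00). With the hepatocyte score its value was 0.40. Of the end windows of Sod1, 18.3% also occur in the gene Gm8566, and the shares were 9.16% for Sod2, 0.797% for G6pdx and 0% for all members but Gpx4, Gsta1, Gsta2, Gstp1, Sod1, Sod2 and G6pdx. Sod2, the mitochondrial manganese enzyme, had 0, 269, 1773 and 1055 counts with PBS and 1697, 690 and 1556 in DT (log2 fold change 0.55 with SE 1.78 and an edgeR adjusted p of 1.00). Cat had 5, 40, 777 and 187 counts with PBS and 487, 730 and 1352 in DT, with PBS 3 inside the DT range.

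With a covariate for whether a library held Y-linked reads, 2 members were called higher in DT, Sod2 and Gstm1 (edgeR adjusted p = 0.00355 and 0.0107), where 0.299% of genes were called higher and 0.039% lower and the median log2 fold change of all tested genes was 0.67. In that fit PBS 1 is the one PBS library with Y-linked reads beside the 3 DT libraries, and both genes had 0 counts in PBS 1. Without PBS 1 the log2 fold change was 0.12 for Sod2 and -0.94 for Gstm1, against 13.25 and 12.37 with the covariate.

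**Figure D3:**
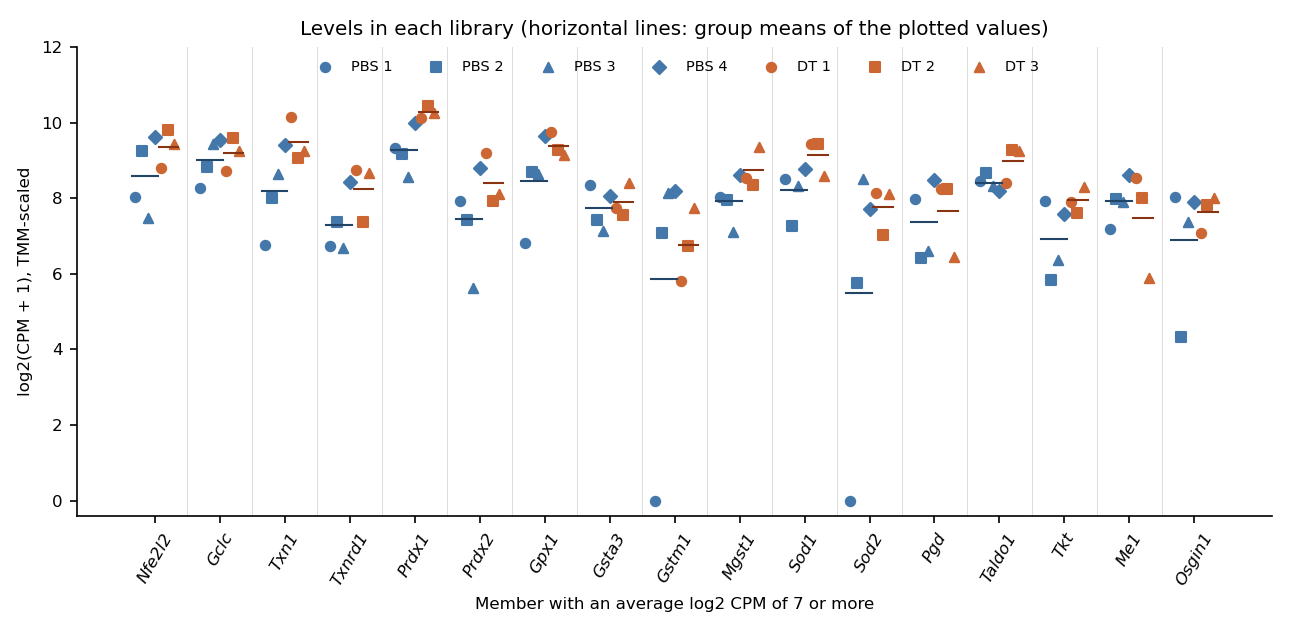
Points give log2(CPM + 1) of the 17 well-read members in each library (blue PBS, orange DT, marker shape by replicate number), and short lines give the group means on this scale. For Prdx1 all DT points lie above all PBS points; for Gstm1 and Sod2 PBS 1 lies at 0.

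NADPH keeps glutathione and thioredoxin reduced, and it is supplied by the pentose phosphate pathway and by malic enzyme. Taldo1, transaldolase, was at 352, 404, 319.9 and 294 CPM with PBS and 336, 621 and 609 CPM with DT. DT 2 and DT 3 were high and DT 1 lay within the PBS range (log2 fold change 0.61 with SE 0.40 and an edgeR adjusted p of 1.00). Tkt, transketolase, was at 240.1, 55.8, 80.7 and 189 CPM with PBS and 239, 195 and 316 CPM with DT, with PBS 1 above DT 1 and DT 2 (log2 fold change 0.82 with SE 0.65 and an edgeR adjusted p of 1.00; -0.45 with the hepatocyte score). Pgd, which makes NADPH from 6-phosphogluconate, was at 253, 84.2, 96.2 and 358 CPM with PBS and 301, 304 and 86.6 CPM with DT. Here high and low libraries occurred in both groups. The log2 fold change was 0.22 with SE 0.63 and an edgeR adjusted p of 1.00, and it turned to between -0.04 and -0.01 without DT 1, DT 2, PBS 2 or PBS 3. Me1, malic enzyme, was at 144, 253, 236 and 388 CPM with PBS and 372, 257 and 58.2 CPM with DT, with DT 3 lowest of the 7 (log2 fold change -0.16 with SE 0.57 and an edgeR adjusted p of 1.00). Without DT 3 its value was 0.29, and without PBS 4 it was 0.11. G6pdx, which catalyses the first step of the pathway, had 560, 243, 120 and 165 counts with PBS and 0, 614 and 274 in DT.

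**Figure D4:**
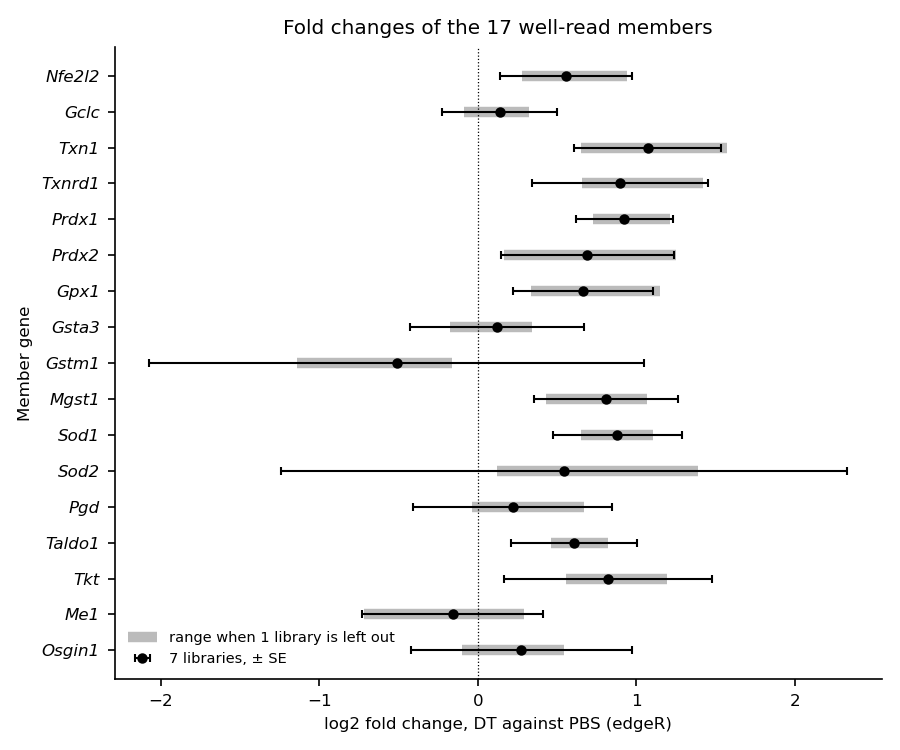
Points give the edgeR log2 fold change of DT against PBS with its SE for the 17 well-read members, and grey bars give the range when 1 library is left out. The range of Prdx1 runs from 0.72 to 1.21, while those of Gclc, Gsta3, Pgd, Me1 and Osgin1 cross 0.

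The well-read members varied more between PBS libraries than between DT libraries in 15 of 17 cases (88.2%), the exceptions being Taldo1 and Me1, where 52.4% of the 1655 genes at that level did. The 17 genes were read in the same 7 libraries and are not independent cases. The PBS group joined PBS 1, which held Y-linked reads, with PBS 2 to 4, which held 0, while all DT libraries held them. The part of this mix and of PBS 4 in the spread was not tested. The coefficient of variation of Gpx1 was 66.0% in PBS and 23.5% in DT, and that of Prdx1 was 40.5% and 11.9%, while Mgst1 (40.0% and 39.7%) and Gsta3 (38.0% and 32.2%) were close in the groups. For genes of like level the medians were 30.5% and 29.0% beside Gpx1 and 27.7% and 22.2% beside Prdx1. The lowest of the 7 values fell in PBS 1, 2 or 3 for 15 of the 17 (5, 4 and 6 genes), in PBS 4 for Taldo1 and in DT 3 for Me1. The highest fell in a DT library for 12 (5, 4 and 3 genes in DT 1, 2 and 3), in PBS 4 for 3, and in PBS 1 and PBS 3 for 1 each. Members at 0 counts numbered 11, 6, 12 and 3 in PBS 1 to 4 and 7, 3 and 4 across DT 1 to 3.

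Other genes of the pathway were read from a list of 82 that covers NRF2 partners, further NRF2 targets, other thioredoxin, glutaredoxin and glutathione enzymes, other antioxidant proteins and other NADPH suppliers. Of these, 64 were tested and 0 passed in either direction by edgeR (an unadjusted p below 0.05 was reached by 1 on each side; DESeq2 called 1 higher and limma-voom 0). Fold changes were positive for 36 and negative for 28, with a median log2 fold change of 0.24, against 49.3% positive and a median of -0.02 among all genes tested. The sign of the median turned without DT 1 and with the hepatocyte score. Without DT 1, 31 of 68 were positive with a median of -0.14, without DT 2 the median was 0.0093, and with the hepatocyte score 30 of 64 were positive with a median of -0.089. For all genes tested the medians were 0.055 without DT 1, -0.15 without DT 2 and -0.31 with the hepatocyte score. By subgroup the positive counts were 4 of 7 NRF2 partners and competitors, 10 of 18 NRF2 targets, 3 of 9 thioredoxin and glutaredoxin genes, 9 of 13 glutathione enzymes, 5 of 9 antioxidant proteins and 5 of 8 NADPH suppliers.

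Values are given for the 6 of these genes with the highest average level, and none passed edgeR (adjusted p = 1.00 each). Fth1 and Ftl1, the ferritin heavy and light chains that store iron, were at 1242 ± 860.4 and 437 ± 373 CPM with PBS and 1799 ± 314 and 595 ± 152 CPM with DT. PBS 4 was the highest of the 7 libraries for both, at 2532 and 941 CPM. Sqstm1, the autophagy adaptor p62 that can sequester KEAP1, was at 1265 ± 137 and 1055 ± 247 CPM (log2 fold change -0.26, SE 0.27), with -0.49 without DT 1 and -0.14 without DT 2. Slc3a2, the heavy chain of the cystine transporter, was at 542, 522, 510.0 and 626 CPM with PBS and 701, 718 and 638 CPM with DT, without overlap (log2 fold change 0.32, SE 0.33). Of the 1655 genes at an average log2 CPM of 7 or more, 5.5% likewise lay wholly higher in DT. Selenop, the secreted selenium carrier, was at 465 ± 97.1 and 601 ± 27.0 CPM, and Maff, a small MAF partner of NRF2, at 375 ± 128 and 413 ± 50.6 CPM.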

How the data were processed

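RNA of 7 libraries was made into QuantSeq FWD libraries, per the labels' protocols. The authors deposited raw read counts per gene symbol. The submitters' processing notes name the build mm9, and the sources used here name no aligner, counter, annotation or molecular identifiers. Samples were grouped and numbered by title. Library sizes were scaled by TMM, and filterByExpr kept 7688 genes with 97.5% of counts. The DT and PBS groups were compared by the quasi-likelihood F test of edgeR 4.0.16 (R 4.3.3) with robust dispersion, two-sided, with adjustment over all tested genes at 0.05. The F statistic and the fold change gave the SE. CPM values are mean ± SD.

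The members and lists were chosen with earlier results of these data known. Counts are given for all members, and fold changes for those whose mean level reached a log2 CPM of 7 and for the 6 highest other pathway genes. Of the listed names, Sepp1, Sepw1, Tf and Epb4.2 were matched by synonym. Shared transcript ends were counted in GENCODE M21 transcripts, and promoters came from RefSeq (GRCm38.p6). Alternatives were RLE and upper quartile factors, other filters, the replicate block, hepatocyte and Y-linked covariates, limma-voom with sample weights (limma 3.58.1), DESeq2 1.42.0 and leaving out each library. The groups' overlap with 1 library left out was examined after seeing the data. In tests on simulated counts for 7688 genes in this comparison, of 200 changed genes drawn from all tested genes 0% were recovered at a log2 fold of 1 and 2.5% at 2; drawn from genes at a mean log2 CPM of at least 8, the shares were 1% and 25%. Intervals and floors cover counting error only. Figures were drawn with matplotlib 3.10.9.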

Additional observations from a re-analysis of the deposited data

Results flagged for a closer look

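Among 23 genes examined for a PBS library far from the other 3, Fth1, the ferritin heavy chain, was the one with such a library, where 1.15 are expected by chance. PBS 4 was at 2532 CPM and the nearest other PBS library at 840.3 CPM, a gap of 0.958 of the range of the group. PBS 4 also held the highest macrophage marker sum of the 7 libraries (1138 CPM), and its part in the Fth1 level was not tested.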

How the results depend on the processing

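Over all tested genes, the counts called higher and lower in DT were 0 and 3. They were 29 and 82 by DESeq2, 6 and 6 by limma-voom, 1 and 7 with no filter on low counts, 6 and 6 with the replicate block, 23 and 3 with the Y-linked covariate, 0 and 5 when genes below a mean log2 CPM of 8 were dropped, and 0 and 1 with the hepatocyte score. When 1 library was left out they ran from 0 to 1 and from 1 to 4. Members called numbered 0 each way in these fits except 2 higher with the Y-linked covariate. Well-read members wholly higher in DT numbered 1, and 1 to 6 when 1 library was left out. The replicate block raised the positive members to 31 of 35 and their median to 1.25 (0.16 for all genes tested). Number 4 occurs in PBS alone, so in this fit PBS 4 had its own term and did not enter the difference between groups. Without PBS 4 in the main fit, 30 of 35 members were positive with a median of 0.94. Deviations of same-numbered libraries correlated at -0.0490, -0.0122 and 0.0259 over 733 genes, so the numbers do not pair the libraries. Of the DT libraries, 1 of 3 had its best correlation with the PBS library of its number. Of 360 fold changes of 23 genes under alternatives, 27 turned sign and 2 newly passed (Sod2 and Gstm1, the latter with its sign turned), both with the Y-linked covariate. With the hepatocyte score the log2 fold changes that turned were Fth1 (-0.093), Ftl1 (-0.16), Gsta3 (-0.68), Me1 (0.60), Osgin1 (-1.88), Pgd (-0.42), Sqstm1 (0.0024) and Tkt (-0.45). With the Y-linked covariate they were Gsta3 (-0.40), Gstm1 (12.37), Me1 (0.67), Osgin1 (-0.33) and Pgd (-0.13), and Sod2 went to 13.25. Gstm1 turned to 1.28 under limma-voom and to 1.17 under the replicate block. Leaving out 1 library gave -0.086 to 0.32 for Gclc, -0.18 to 0.34 for Gsta3, -0.094 to 0.26 for Maff, -0.72 to 0.29 for Me1, -0.10 to 0.54 for Osgin1 and -0.036 to 0.67 for Pgd. Apart from fewer genes or libraries, the cause was not tested. Values of 0 were frequent for genes below 1000 counts (8.15% where the rest of the group averaged 500 to 1000), and the cause of these values was not tested.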

Other observations

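A pair of genes of glutathione turnover outside the member list were chosen after their values were seen. Chac1, which breaks glutathione down in the cytosol, had 9, 804, 29 and 966 counts across PBS 1 to 4 against 4224, 1644 and 1254 across DT 1 to 3, and every DT library was higher on the scaled level (log2 fold change 2.20 with SE 1.57 and an edgeR adjusted p of 1.00). Of genes at an average log2 CPM of 7 or more, 5.5% lay wholly higher in DT. Chac1 passed with the replicate block in edgeR (adjusted p = 0.00286), where 6 of 7688 genes were called higher, although no pairing of libraries by number was seen. In that fit PBS 4, the PBS library nearest to DT for Chac1, did not enter the difference between groups. Oplah, which returns 5-oxoproline to glutamate, had 0 counts in each PBS library and 178, 382 and 236 in DT. It did not pass edgeR (adjusted p = 1.00) or limma-voom (0.144) and passed DESeq2 (0.0215), which called 0.416% of genes higher. Htatip2, an NRF2 target chosen in the same way, went the other way, with 0, 79, 232 and 237 counts with PBS and 0 in each DT library, and passed none of the 3 tests (adjusted p = 1.00, 0.663 by limma-voom and 0.0886 by DESeq2). Oplah and Htatip2 had an average log2 CPM of 4.38 and 4.01, and the share of genes with such counts at that level was not taken. A library was at 0 in 43.5% of cases in which the rest of its group had a mean of 100 to 200 counts.

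Slc7a11, the light chain of the cystine transporter and an NRF2 target, had reads in PBS 4 (487 counts) and across DT 1 to 3 (4, 233 and 292) and 0 counts in PBS 1 to 3. The heme-degrading enzyme gene Hmox1 had 179, 126, 0 and 839 counts with PBS and 78, 363 and 340 in DT. Both were highest in PBS 4, and both were picked after seeing their values.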
